A study of Brassica napus with 3 samples.

Results

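Pseudochromosome 11 of a B. rapa reference carried 1676 of the 27672 H3K4me3 peak summits of a control canola line and 1913 of the 31464 summits of the selected line PEG1, which is 3589 of 59136 summits in both lists. The members are all summits of the lists whose sequence name ends in 11, a rule that uses the name and no score or count. B. rapa has 10 chromosomes, and the sources used here do not give the make-up of this additional sequence. It is therefore treated as a sequence and not as a chromosome, and it is called sequence 11 beside sequences 1 to 10 of the same reference. Both lines are Brassica napus (canola), labelled L. spp. oleifera (Metzg) Sinsk. f. biennis. Leaf tissue of 26-day-old plants without treatment was used. PEG1 is labelled a selected epiline, and the title of the series speaks of selection for energy efficiency and drought tolerance. Each line has 1 H3K4me3 library without a replicate, so differences between lines carry no replicate check, and neither a test nor a p-value between them is given. A no-antibody library of the control line was not analysed here. The number of plants behind a library was not stated, and leaf identity could not be checked because the lists hold positions without gene names.

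H3K4me3 is trimethylation of lysine 4 on histone H3. It is laid down by SET-domain methyltransferases, which in Arabidopsis include the Trithorax-like ATX proteins, and it sits on the first nucleosomes of transcribed genes. In plant genomes the mark therefore follows gene-rich euchromatin and is scarce in transposon-rich heterochromatin around centromeres. The chromatin was digested with micrococcal nuclease without crosslinking, so a summit is the base at which nucleosome-sized fragments pile up highest. B. napus combines the genomes of B. rapa and B. oleracea relatives, and the summits on the B. rapa reference come from libraries that contain both.

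Sequence 11 was sparsely marked in both lines. Its summits spanned 31.6 Mb, counted from the first base to the last summit at 31609282. Of sequences 1 to 10, 1 had a longer span and 9 a shorter one. Sequence 11 held 53.02 control summits per Mb (95% exact Poisson interval 50.5 to 55.6) and 60.5 PEG1 summits per Mb (57.8 to 63.3). Each of sequences 1 to 10 was denser, with 88.5 to 119.7 summits per Mb in the control and 103.6 to 134.5 in PEG1. Against sequences 1 to 10 together, the density of sequence 11 was 0.520 times as high in the control (exact conditional interval 0.495 to 0.547) and 0.522 times as high in PEG1 (0.498 to 0.547). Both lines thus gave nearly the same relative density. These intervals, and all that follow, cover counting error only and treat summits as independent. The span counts every position, and the number of resolved bases among them is not known here.

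The marked nucleosomes were concentrated at the start of the sequence. The span was divided into 5 segments of equal length, numbered from the start. In the control, segment 1 held 609 summits, segment 2 held 343, segment 3 held 376, segment 4 held 261 and segment 5 held 87. PEG1 had 672, 406, 425, 306 and 104 summits in the same segments. Segment 1 carried 36.3% of the control summits and segment 5 carried 5.19%. In PEG1 these shares were 35.1% and 5.44%. The decline was not even. Segment 1 held 1.78 times as many control summits as segment 2 (1.55 to 2.03) and 1.66 times as many PEG1 summits (1.46 to 1.88). Segments 2 and 3 could not be told apart, with ratios of 0.912 (0.786 to 1.06) and 0.955 (0.832 to 1.10). Segment 4 exceeded segment 5 by a factor of 3 in the control (2.35 to 3.87) and 2.94 in PEG1 (2.35 to 3.71).

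**Figure D1:**
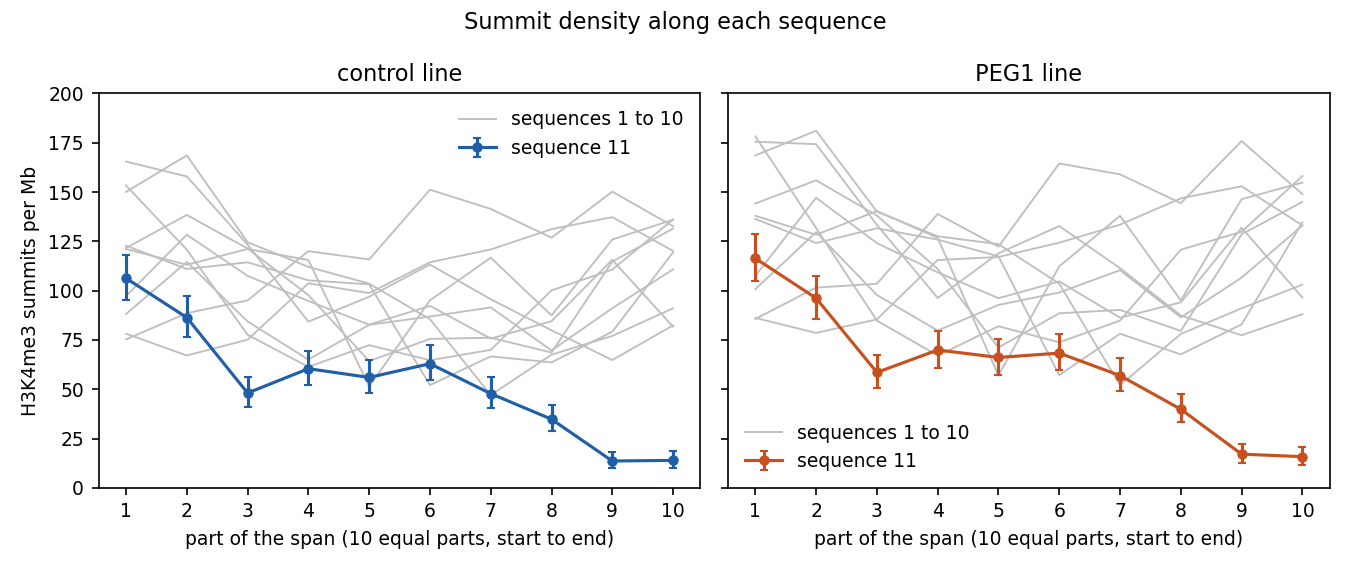
H3K4me3 summits per Mb (vertical axis) in 10 equal parts of the span from start to end (horizontal axis), control on the left and PEG1 on the right. Coloured points are sequence 11 with 95% exact Poisson intervals and grey lines are sequences 1 to 10. Sequence 11 starts at 106.3 per Mb in the control and 116.4 in PEG1, among the grey lines, and ends at 13.9 and 15.8, below all of them.

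The start of sequence 11 was marked as densely as ordinary stretches of the other sequences. Segment 1 held 96.3 control and 106.3 PEG1 summits per Mb. Sequences 1 to 10 divided in the same way give 50 segments, of which 21 were less dense than this in the control and 20 in PEG1. All later segments of sequence 11 lay near or under the bottom of that range. Segment 2 held 54.3 control and 64.2 PEG1 summits per Mb, segment 3 held 59.5 and 67.2, and segment 4 held 41.3 and 48.4. Segment 5 held 13.8 (11.02 to 16.98) in the control and 16.5 (13.4 to 19.9) in PEG1. The least dense of the 50 segments was segment 4 of sequence 8, with 57.3 in the control and 65.04 in PEG1. Segment 3 of sequence 11 exceeded that 1 segment in either line, while its segments 2, 4 and 5 were less dense than all 50.

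The fall from start to end was steeper than on any of sequences 1 to 10. Segment 1 held 7 times as many control summits as segment 5 (5.58 to 8.87) and 6.46 times as many PEG1 summits (5.25 to 8.02). On sequences 1 to 10 the fuller of the end segments exceeded the other by factors of 1.004 to 2.20 in the control and 1.04 to 2.11 in PEG1, the highest being on sequence 10. The steepness depends on segment 5: with it left out, a setting added after the data were seen, segment 1 exceeded segment 4 by factors of 2.33 in the control and 2.20 in PEG1. On sequence 8 segment 1 exceeded segment 4 by larger factors, 2.78 in the control and 2.69 in PEG1. Sequence 11 was thus not the steepest in that setting. A steady trend alone did not set sequence 11 apart. Over its 63 whole windows of 500 kb, Spearman's rank correlation of the count with the order of the windows was -0.78 in the control and -0.79 in PEG1. Sequence 8 gave -0.78 and -0.81 over 39 windows. These correlations are descriptions, since neighbouring windows share their surroundings and each list is 1 library.

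**Figure D2:**
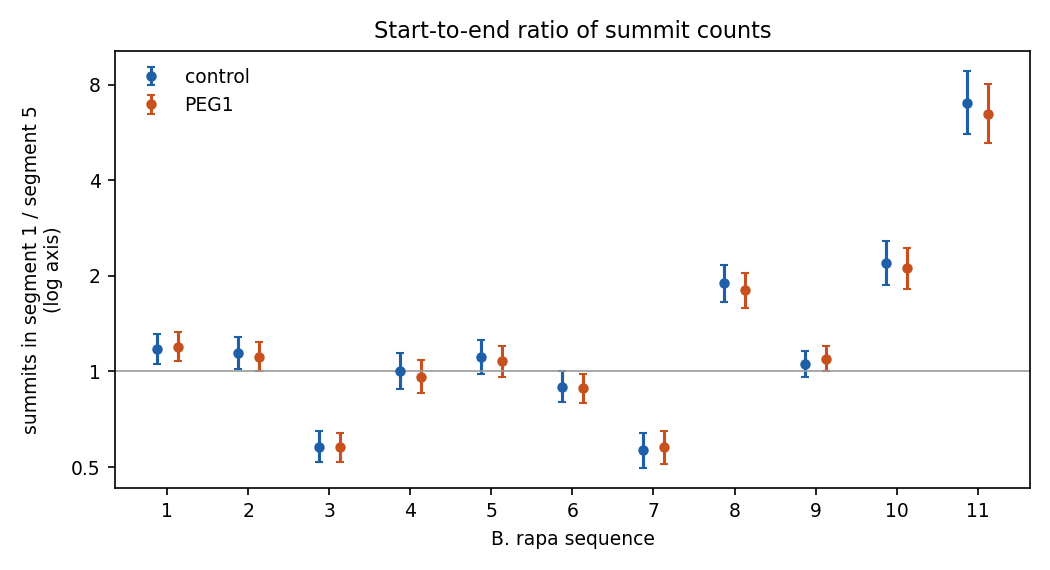
Ratio of the summit count in segment 1 to that in segment 5 of the span (vertical log axis) for each of the 11 B. rapa sequences (horizontal axis), control in blue and PEG1 in orange, with 95% exact conditional intervals. Sequence 11 stands at 7 and 6.46, and the next highest, sequence 10, at 2.20 and 2.11.

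Windows of 500 kb show how far the extremes lay apart. The fullest window ran from 500001 to 1000000, with 70 control and 75 PEG1 summits. Next came the window from 2000001 to 2500000, with 63 and 71, and the window from 1 to 500000, with 61 and 71. The emptiest 3 windows each held 9 summits of both lines together. They ran from 27500001 to 28000000 (4 control and 5 PEG1), from 29000001 to 29500000 (5 and 4) and from 29500001 to 30000000 (4 and 5). Sparse windows followed each other at the end of the sequence: the last 13 whole windows, 51 to 63, all held at most 30 summits of both lines. On sequences 1 to 10, 8 of 504 windows were this sparse and no more than 2 were adjacent. The limit of 30 summits was chosen after the data were seen. No window of sequence 11 was empty in either line.

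Distances of up to 10 kb were less frequent on sequence 11 than elsewhere, and long distances were far more frequent. The median spacing was 7680 bp in the control (95% interval 7014 to 8267) and 6680 bp in PEG1 (6328 to 7272). The medians of sequences 1 to 10 taken singly were 5288 to 6864 bp and 4737 to 5929 bp, below sequence 11 in all 10 cases in each line. Among the classes up to 5 kb, the shortest differed least. At most 1 kb were 6.03% of the control spacings on sequence 11 (4.99 to 7.27) and 6.75% on sequences 1 to 10 (6.45 to 7.07). The PEG1 shares were 6.69% (5.66 to 7.90) and 7.62% (7.33 to 7.93). From 1 to 2 kb the control had 8% (6.79 to 9.40) on sequence 11 and 10.2% (9.82 to 10.6) on sequences 1 to 10, and PEG1 9.94% (8.68 to 11.4) and 11.6% (11.2 to 11.97). From 2 to 5 kb the shares were 22.0% (20.1 to 24.1) and 27.5% (26.98 to 28.1) in the control, and 23.1% (21.3 to 25.1) and 29.5% (28.9 to 29.97) in PEG1. From 5 to 10 kb they were 21.6% (19.7 to 23.6) and 24.7% (24.2 to 25.3) in the control, and 21.3% (19.6 to 23.2) and 24.6% (24.2 to 25.1) in PEG1. The class from 10 to 20 kb differed little, with 18.6% (16.8 to 20.6) and 18.7% (18.2 to 19.1) in the control. PEG1 had 18.1% (16.5 to 19.9) and 17.1% (16.7 to 17.6) there. At the long end, the 90th percentile of the spacing was 45735 bp on sequence 11 and 22274 bp on sequences 1 to 10 in the control, and 40458 and 19548 bp in PEG1. Spacings over 100 kb numbered 54 of 1675 in the control and 50 of 1912 in PEG1. All of sequences 1 to 10 together had 45 of 25986 and 41 of 29541.

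**Figure D3:**
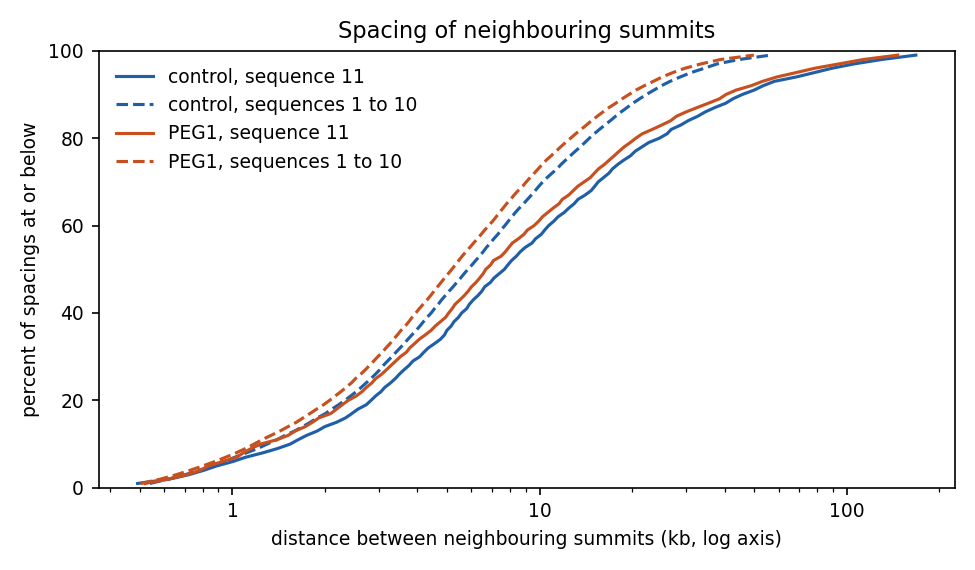
Percent of spacings at or below a given length (vertical axis) against the distance between neighbouring summits in kb (horizontal log axis), with solid lines for sequence 11 and dashed lines for sequences 1 to 10. The curves run close together at 1 kb and separate toward long distances, where the 90th percentile of the control is 45735 bp on sequence 11 and 22274 bp on sequences 1 to 10.

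Spacing widened along the sequence. The median distance between control summits was 5490 bp in segment 1, 8949 bp in segment 2, 6989 bp in segment 3, 10441 bp in segment 4 and 52568 bp in segment 5. The PEG1 medians were 5164, 7450, 6617, 9120 and 42378 bp. In segment 5 the lower quartile was also long, at 14915 bp in the control and 13361 bp in PEG1, compared with 2820 and 2492 bp in segment 1. Segment 5 was thus thin in short spacings as well as rich in long ones.

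Stretches without a summit of either line became more frequent toward the end of sequence 11. There were 49 empty stretches over 100 kb, which covered 7.17 Mb or 22.7% of the span. Sequences 1 to 10 had 1 to 12 such stretches each, covering 0.559% to 7.16% of their spans. Assigned to segments by their start, there were 3 in segment 1 and then 7, 9, 11 and 19, and those of segment 5 amounted to 47.0% of its length. The longest empty stretch of sequence 11 ran from 27607092 to 27917879, over 310788 bp, between control summits scoring 1.80 and 2.76. Scores are on the −log10 scale of significance of the peak caller. The next ones ran from 7348045 to 7591668 (243624 bp), from 28872633 to 29106662 (234030 bp), from 25188397 to 25413237 (224841 bp) and from 30256601 to 30463423 (206823 bp). Longer single stretches existed elsewhere, up to 674755 bp on sequence 1. Leaving out the empty stretches over 100 kb, a setting added after the data were seen, raised the density of sequence 11 to 68.6 control and 78.3 PEG1 summits per Mb, against 89.7 to 121.9 and 105.02 to 136.9 on sequences 1 to 10. In segment 5 it was then 25.95 in the control and 31.02 in PEG1, against 103.7 and 114.4 in segment 1. The stretch from 25188397 to 25413237 reaches into segment 5 but was counted whole in segment 4. The empty share and this density of segment 5 are therefore slightly too low.

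The lines matched each other on sequence 11 as closely as on the remaining sequences. A summit was called matched when the other line had one at most 150 bp away, about the length of DNA on a nucleosome. On sequence 11, 1330 control summits and 1330 PEG1 summits were matched. That is 79.4% of the control summits (95% Wilson interval 77.4 to 81.2), where the whole B. rapa control list had 79.1%, and 69.5% of the PEG1 summits (67.4 to 71.5), where the whole PEG1 list had 69.5%. The difference from sequences 1 to 10 was 0.301 percentage points in the control (Newcombe interval -1.76 to 2.24) and -0.0199 points in PEG1 (-2.18 to 2.07). The lower PEG1 share goes with the longer PEG1 list, since the same number of summits is matched in each.

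Matching showed no steady change along the density gradient. From segment 1 to 5, 79.1%, 78.1%, 78.99%, 83.5% and 74.7% of the control summits were matched. The PEG1 shares were 71.7%, 66.01%, 69.9%, 71.2% and 62.5%. From segment 1 to 2, where the density fell, the PEG1 share changed by -5.72 points (-11.5 to -0.0511) and the control share by -1.01 points (-6.59 to 4.28). The other steps between neighbouring segments had intervals that included 0 in both lines, and the intervals are not adjusted for the number of steps. The largest change was from segment 4 to 5, with -8.81 points in the control (-19.6 to 0.572) and -8.74 points in PEG1 (-19.5 to 1.45). Segment 5 was lowest in both lines, but it rests on 87 and 104 summits. Segment 5 minus segment 1 was -4.43 points in the control (-14.9 to 4.22) and -9.23 points in PEG1 (-19.4 to 0.162), so a drop of that size can neither be shown nor set aside at this number of summits. Shares were also compared between windows of like density. In windows with 21 to 50 summits of both lines, 80.4% of the control summits were matched on sequence 11 (75.9 to 84.2, 21 windows) and 80.4% on sequences 1 to 10 (76.02 to 84.2, 20 windows). The PEG1 shares there were 69.02% (64.4 to 73.3) and 68.9% (64.3 to 73.1). In the sparsest windows, with at most 20 summits, the control shares were 75.4% on sequence 11 (63.3 to 84.5, 10 windows) and 81.5% on sequences 1 to 10 (63.3 to 91.8, 4 windows). For PEG1 they were 62.2% (50.8 to 72.4) and 68.8% (51.4 to 82.05), and these intervals are too wide to tell the sequences apart.

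**Figure D4:**
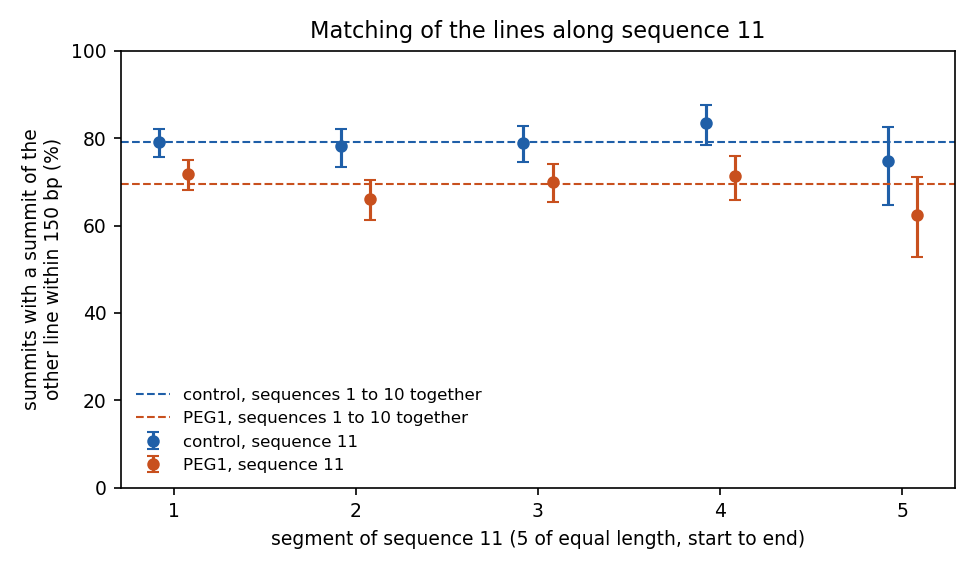
Percent of matched summits (other line at most 150 bp away, vertical axis) in the 5 segments of sequence 11 from start to end (horizontal axis), with 95% Wilson intervals. Dashed lines give sequences 1 to 10 together, 79.1% in the control and 69.5% in PEG1. The interval of segment 5 reaches from 64.7% to 82.7% in the control and from 52.9% to 71.2% in PEG1.

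Matched summits lay almost on top of each other. The 1330 pairs of mutually nearest summits were a median of 27 bp apart (quartiles 11 and 54.8 bp), and on sequences 1 to 10 taken singly the median was 27 to 29 bp. Of these pairs, 27, or 2.03%, fell on the same base, beside 1.95% on sequences 1 to 10. Within 10 bp lay 321, or 24.1%, beside 23.0%. No shift to one side was seen beyond counting error: the PEG1 summit had the higher position in 664 pairs and the lower in 639, which is 50.96% of the pairs that differed (48.2 to 53.7). Weakly scored pairs lay farther apart. With all pairs of the reference divided by control score into 4 classes of nearly equal size, the median offset on sequence 11 was 36 bp in the weakest class and then 26, 25 and 22 bp, and on sequences 1 to 10 it was 38, 29, 27 and 21 bp.

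PEG1 had more summits than the control in each of the 5 segments of sequence 11. The ratio over the sequence was 1.14 (1.07 to 1.22), beside 1.12 to 1.17 on sequences 1 to 10. By segment it was 1.10, 1.18, 1.13, 1.17 and 1.20. The interval of each segment held the ratio of the whole sequence, and those of segments 1, 3, 4 and 5 also held 1. These intervals leave out that most summits were shared by the lines, and they are too wide for that reason. In segment 1, 482 of 609 control and 482 of 672 PEG1 summits were matched. An interval that held 1 therefore does not place the surplus of its segment within counting error. Nor do these intervals show an even ratio over the segments. PEG1 had more summits in 56 of 63 windows, as many in 5 and fewer in 2. With lists cut to equal length over the reference, which removes the surplus by construction, the ratio on sequence 11 was 1.004 (0.937 to 1.07). Among the 33 windows with at least 50 summits of both lines, the PEG1 share was highest from 14500001 to 15000000 (33 PEG1 and 23 control), from 8000001 to 8500000 (33 and 24) and from 10000001 to 10500000 (46 and 35). It was lowest from 3000001 to 3500000 (32 and 32), from 4500001 to 5000000 (52 and 52) and from 1500001 to 2000000 (62 and 61). The exact interval of each of the 63 windows held 53.2%, the PEG1 share over both whole lists. Windows held only 9 to 145 summits of both lines, and most summits are matched between the lines. Such wide intervals would rarely miss that share, so they cannot show an even ratio along the sequence.

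Summits of sequence 11 were as strong as those of the other sequences, and the strongest class was somewhat fuller. The median score on sequence 11 was 14.4 in the control, equal to the median of the whole list, and 18.2 in PEG1, where the list had 18.5. At or above the list median were 50.2% of the control summits (47.8 to 52.6) and 49.4% of the PEG1 summits (47.2 to 51.6). In the best-scored 10% of each list stood 207 control summits of sequence 11, or 12.4%, and 224 PEG1 summits, or 11.7%. Sequences 1 to 10 together had 9.85% and 9.96%, so the difference was 2.50 points in the control (0.969 to 4.20) and 1.75 points in PEG1 (0.342 to 3.31). Singly they had 8.26% to 11.1% and 8.79% to 10.96%. The best 1% showed the same order. It held 26 control summits of sequence 11, or 1.55%, and 28 PEG1 summits, or 1.46%, beside 0.962% and 0.971% on sequences 1 to 10. These differences were 0.590 points in the control (0.0832 to 1.31) and 0.492 points in PEG1 (0.0281 to 1.14), so the intervals only just excluded 0. In the upper 25% the intervals of the difference included 0. The lines are not separate support for this: of the pairs on sequence 11, 199 had a control and 215 a PEG1 summit in the best 10%, and 146 had both.

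Median scores did not fall steadily with the density, but they were lowest in segment 5 in both lines. The median control score was 13.6 in segments 1 and 2, 16.01 in segment 3, 16.03 in segment 4 and 12.1 in segment 5. The PEG1 medians were 17.7, 16.9, 20.1, 18.5 and 16.0. In segment 5, 43.7% of the control summits (33.7 to 54.1) and 42.3% of the PEG1 summits (33.3 to 51.9) reached the median of their list. The highest shares were in segment 3, with 53.7% (48.7 to 58.7) and 54.4% (49.6 to 59.03). Differences in these shares between segments were not tested. Isolated summits scored near the list medians. Those with no neighbour of their own line within 20 kb numbered 140 in the control and 136 in PEG1, with median scores of 13.7 and 16.4. These are 8.35% and 7.11% of the summits, against 2.17% and 1.52% on sequences 1 to 10. Of the isolated control summits 83.6% were matched (76.6 to 88.8), and of those with a neighbour within 1 kb 66.8% (59.98 to 73.05), beside 81.2% and 68.8% on sequences 1 to 10.

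The strongest summits of sequence 11 stood at nearly the same base in both lines. The best in the control was at 2369631, with a score of 119.3 and rank 1 of its list, and its PEG1 partner 18 bp away ranked 4. The next was at 11632104 in the control (101.9, rank 6) and 1 bp lower in PEG1 (130.8, rank 2). The control summit at 8561761 (77.8, rank 46) had its partner at 8561763 in PEG1 (117.5, rank 9), and the nearest summit of its own line was 60356 bp away in the control and 60302 bp away in PEG1. Control summits at 12268050 (82.8, rank 30) and 18488436 (81.03, rank 38) completed the best 5 of that line, with partners 20 and 16 bp away that ranked 128 and 172. The best 5 of PEG1 also held 5617619 (95.8, rank 33), whose control partner 2 bp away ranked 145. A member of that set lay in the sparse end: 28172287 in PEG1 (99.1, rank 26) and 28172274 in the control (70.2, rank 88). Ranks are given because scores depend on read depth, which is unknown for both libraries. The order of the scores was similar over all 1330 pairs, with Spearman's rho of 0.86 on sequence 11 and 0.82 to 0.85 on sequences 1 to 10. It is a description, since the pairs come from 2 libraries.

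**Figure D5:**
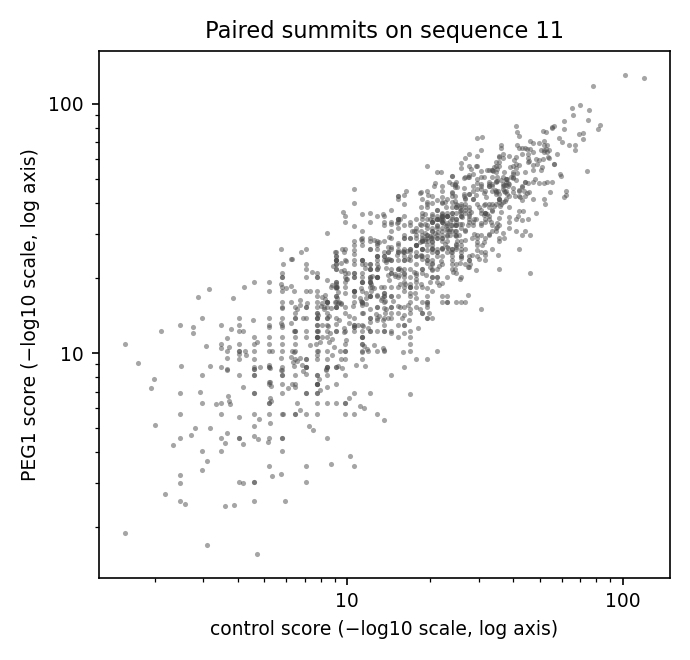
Scores of the 1330 paired summits on sequence 11, control on the horizontal and PEG1 on the vertical axis, both on the −log10 scale and drawn on log axes. The scores rise together with rho of 0.86, and their medians are 16.1 in the control and 23.6 in PEG1. Of these pairs, 199 have a control and 215 a PEG1 summit in the best 10% of its list, and 146 have both. The scores of the lines differ in scale, so only their order is compared.

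Summits of 1 line only were as frequent on sequence 11 as in the whole lists, and they were weak. Lacking a partner within 500 bp were 131 control summits, 7.82% (6.63 to 9.20), where the whole control list had 7.76%. PEG1 had 372, 19.4% (17.7 to 21.3), where the whole PEG1 list had 18.7%. Both shares are near those backgrounds. The median score of these summits was 5.80 in the control and 6.28 in PEG1, against 15.3 and 21.8 for the others on sequence 11. On sequences 1 to 10 the medians were much the same, 5.73 and 6.24 against 15.3 and 21.8. Each list was split by score into 4 classes. Of the PEG1 summits on sequence 11, 263 of 482 in the weakest class lacked a partner, or 54.6% (50.1 to 58.96), and in the strongest class 7 of 498, or 1.41% (0.683 to 2.87). The control had 75 of 393, or 19.1% (15.5 to 23.3), and 5 of 440, or 1.14% (0.486 to 2.63). Sequences 1 to 10 had similar shares in the weakest and strongest class, 53.4% and 1.86% in PEG1 and 20.0% and 1.81% in the control. The dependence on score was thus not particular to sequence 11. Control summits were matched to the longer list, so the lines are not compared here.

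The strongest of these summits had a summit of the other line not far off. Each of the 5 best control summits without a PEG1 summit within 500 bp had one between 503 and 895 bp away. Such distances are common here: the median was 987 bp over all 131 control summits of this kind and 2593.5 bp over the 372 of PEG1. The nearest summit can also be weak, as the PEG1 summit nearest to 23859005 scored 5.33. They lay at 23949040 (score 41.9), 23859005 (38.8), 4060374 (30.3), 16015604 (26.0) and 6071591 (24.0). The 5 best of PEG1 lay at 23948145 (50.9), 23860531 (45.9), 16265373 (38.5), 4309734 (38.5) and 15984352 (37.3), with a control summit between 525 and 1526 bp away. The summits at 23949040 in the control and 23948145 in PEG1 were each other's nearest, 895 bp apart, at ranks 1256 and 1706 of their lists. Requiring 2000 bp left 525 of 25996 control and 3047 of 29551 PEG1 summits on sequences 1 to 10. On sequence 11 it left 45 of 1676 control and 215 of 1913 PEG1 summits. The best of these, picked after the values were seen, were a control summit at 4306036 with a score of 15.3 and a PEG1 summit at 14406599 with a score of 22.7.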

How the data were processed

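Native H3K4me3 ChIP-seq of leaf chromatin was available as 1 list of peak summits for each line on the B. rapa reference. MACS2 version 2.0 made the peaks, per the submitters' processing notes. The authors' deposited scores follow a −log10 scale, with p or q left unstated. The aligner, background, filters and read depth are also not given in the sources. Positions are 1-based on the BGI pseudochromosomes V1 of BR5307, per the sequence names. Peak names ran without a break. No genome or annotation of this build was used, so neither genes nor sequences are shown.

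Lines were compared by nearest summits (150 bp for matched, 500 bp for summits of 1 line only), pairs being mutual nearest neighbours. Shares carry Wilson, differences Newcombe, counts exact Poisson, ratios exact conditional and median spacings order-statistic 95% intervals. Named regions were the 5 best-scored summits, the 5 best summits of 1 line only and the 5 longest empty stretches, and 3 windows at each extreme. The region, lists and measures were chosen with earlier results of these data known. Computation used Python 3.11.15 with NumPy 2.4.6, SciPy 1.17.1, pandas 2.3.3 and matplotlib 3.10.9. On simulated data made from 1247 control summits of sequence 11, 100% of shared and 100% of line-only summits were recovered, as built in. Only summits far from others of their line were used, and shifts stayed inside the 150 bp limit. Full recovery was thus fixed in advance and checks only the code, and closely spaced summits were not covered.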

Additional observations from a re-analysis of the deposited data

How the results depend on the processing

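No paired analysis was possible because each line has 1 library and no test was made, and for the same reason leaving out a replicate could not be tried. Of 53 alternative values, 23 stayed inside the 95% interval of the value reported or, for counts, within 1.5 times of it, and 30 moved. A reversal was defined only for a difference whose interval excluded 0. No difference in this set met that, so none could be counted as reversed. Most moves follow from the setting itself, since stricter distances or scores keep fewer summits. Pairs below are control then PEG1. For distances of 50, 300 and 500 bp the shares matched were 57.9% and 50.7%, then 87.6% and 76.7%, then 92.2% and 80.6%. They were 76.3% and 75.98% with equally long lists, which force the shares together. On sequences 1 to 10 equal lists gave 75.9% and 75.96%. At or above the list median score the density was 26.6 and 29.9 summits per Mb and the median spacing 16826 and 15308 bp. The density was 68.6 and 78.3 outside empty stretches over 100 kb. With 2 segments in place of 5 the ratio of start to end was 2.06 and 2.06. The ratio of segment 1 to 4 was 2.33 and 2.20, and that of segment 2 to 5 was 3.94 and 3.90. The ratio of the lines was 1.004 with equally long lists. The share matched at the end minus that at the start, whose interval included 0, did change sign: in the control from -4.43 to 0.328 points at 500 bp and to 0.794 with 2 segments, and in PEG1 from -9.23 to 0.422 with 2 segments. Summits of 1 line only numbered 64 in the control at 1000 bp, 45 and 215 at 2000 bp, and 215 in PEG1 with equally long lists. The share of summits was 26.3% and 26.0% in the upper 25% and 12.4% and 11.7% in the best 10% of the list. Read depth is unknown, so how many weak summits a deeper library would add to the sparse end cannot be read from these lists.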
